A study of Homo sapiens with 6 samples.

Results

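The 10 genes described encode AP-1 proteins or belong to the immediate early genes. Transcription in that class starts within minutes of a stimulus without new protein synthesis. The 10 genes are FOS, FOSB, FOSL1 and FOSL2 of the FOS family, JUN, JUNB and JUND of the JUN family, the zinc finger factor EGR1, the nuclear protein IER2 and CCN1, a secreted matrix protein once named CYR61. They were taken by gene symbol, with earlier results of these data known, out of 18774 genes with a probe of their own on the arrays. The 10 genes had 11 probes, since FOSL2 had 2, and 7 of the genes had signal enough to be tested. The study used HEK293T, a line derived from human embryonic kidney and made to express a viral T antigen, and asked what follows when a microRNA cluster is supplied from a plasmid. There were 2 control arrays from untransfected cells, 2 arrays from cells transfected with 2 µg of the cloned miR-23a, miR-27a and miR-24-2 cluster, and 2 arrays from cells transfected with 4 µg of it, the transfected wells being of a 6-well plate. The labels call the arrays of a group biological duplicates, and no group received a plasmid without the cluster, so the cluster and transfection itself cannot be told apart. The sources used here give no time between transfection and harvest. All arrays were of 1 bead chip on which each group held neighbouring positions, so position and group cannot be told apart either.

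Proteins of the FOS and JUN families pair through leucine zippers to form the transcription factor AP-1. FOS proteins bind DNA only in a pair with a partner such as a JUN protein, whereas JUN proteins can also pair with each other. Growth factors, stress and damage switch these genes on through kinases of the MAP kinase family, which act on serum response factor with its ETS partners and on CREB and ATF proteins already bound to the promoters. The messages are short-lived and the induction is usually brief. CCN1 is in addition a well-known target of TEAD factors with the coactivators YAP1 and WWTR1.

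The cluster's 3 main products come from 1 stretch of chromosome 19 on the minus strand (RefSeq, GRCh38.p14). Their mature sequences are shown because the transfected plasmid carried the cluster that encodes them. miR-23a-3p lies at chr19:13836595-13836615, miR-27a-3p at chr19:13836447-13836467 and miR-24-3p at chr19:13836289-13836310. The seed, bases 2 to 8, by which a microRNA chiefly recognises its targets, is in capitals, and the 3 seeds differ from each other.
hsa-miR-23a-3p: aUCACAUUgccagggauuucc
hsa-miR-27a-3p: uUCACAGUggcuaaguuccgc
hsa-miR-24-3p: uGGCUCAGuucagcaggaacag
The arrays carried 0 probes annotated to the cluster or its host transcript, so delivery of the plasmid could not be checked in these data.

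Each probe was read on a median of 40 beads, and between 9278 and 10371 of 48701 probes were detected per array, meaning brighter than negative control beads at a detection p under 0.01. The number of arrays, 2 in each group, limits the precision of every value. Of 8 markers listed for the line, VIM, KRT8, KRT18 and CDH2 were detected on all 6 arrays, NEFL and NEFM on 4, and PAX2 and LHX1 on 0. Their summed processed intensity was 9770 to 10074 in the controls, 8132 to 9069 at 2 µg and 8965 to 9770 at 4 µg. At 2 µg NEFL (at least 3.80-fold, undetected there), KRT8 (-1.19) and VIM (-0.56 on the log2 scale) were called lower, and at 4 µg NEFL (-1.85) and KRT8 (-0.60) were. Of 5 haematopoietic markers 0 were detected. Of 6 fibroblast markers COL3A1 was detected on 6 arrays and COL1A1 and LUM on 4, with COL1A2, DCN and THY1 on 0, and the list's summed processed intensity was 523 to 538 in the controls, 338 to 348 at 2 µg and 408 to 445 at 4 µg. Of 4 endothelial markers VWF was detected on 4 arrays and TEK on 2, with PECAM1 and CDH5 on 0, and their sum was 71.2 to 78.7, 170 to 183 and 157 to 175 in the same order. The hepatocyte marker ALB was detected on 5 arrays, with APOA1 and TTR on 0. The part of these marker shifts in the results was not tested.

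FOS and CCN1 rose at both doses, FOS by 1.78 and 2.49 and CCN1 by 1.49 and 1.28 on the log2 scale. FOSB also rose at both doses, JUN and FOSL1 were called higher at 2 µg alone, and JUND and EGR1 were called in neither comparison with the controls. FOSL2, JUNB and IER2 were too dim to be tested. At 2 µg 5 of the 7 tested genes were called higher than the controls and 0 lower. Over all 8018 tested genes 41.6% were called in that comparison, 21.8% higher and 19.8% lower. At 4 µg 3 were called higher and 0 lower, where 22.0% of all genes were called, 11.8% higher and 10.2% lower. Between the doses FOS and FOSB were higher and FOSL1 was lower at 4 µg, where 8.79% of all genes were called, 5.23% higher and 3.57% lower. These calls between the doses fell from 3 to 1 without either control array and to 0 without 2 µg replicate 1 or either 4 µg array, and the 5 calls at 2 µg fell to 2, FOS and CCN1, without control replicate 2. FOSB and FOSL1 entered the test only through the transfected groups, because neither was detected on a control array, and so could hardly have been called lower. Of the 5 genes detected on all 6 arrays, FOS, JUN and CCN1 were called higher at 2 µg and FOS and CCN1 at 4 µg, and FOS was called higher between the doses. Of the 6820 genes detected on all arrays 40.4% were called at 2 µg (21.5% higher and 18.9% lower), 20.3% at 4 µg (10.6% and 9.69%) and 7.55% between the doses (4.15% and 3.40%). A call is an adjusted p under 0.05 in limma's moderated test on normalized log2 intensity, with Benjamini-Hochberg adjustment over all 8018 genes. The comparisons with 2 µg and with 4 µg share the control arrays, so their agreement is not independent. With 2 arrays a group, values without overlap are common. They were seen against the controls for 69.6% of the tested genes with 2 µg and for 65.8% with 4 µg, and for 57.3% in comparing both doses. In these pooled cells a change in every cell and a change in a share of the cells cannot be told apart.

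**Figure D1:**
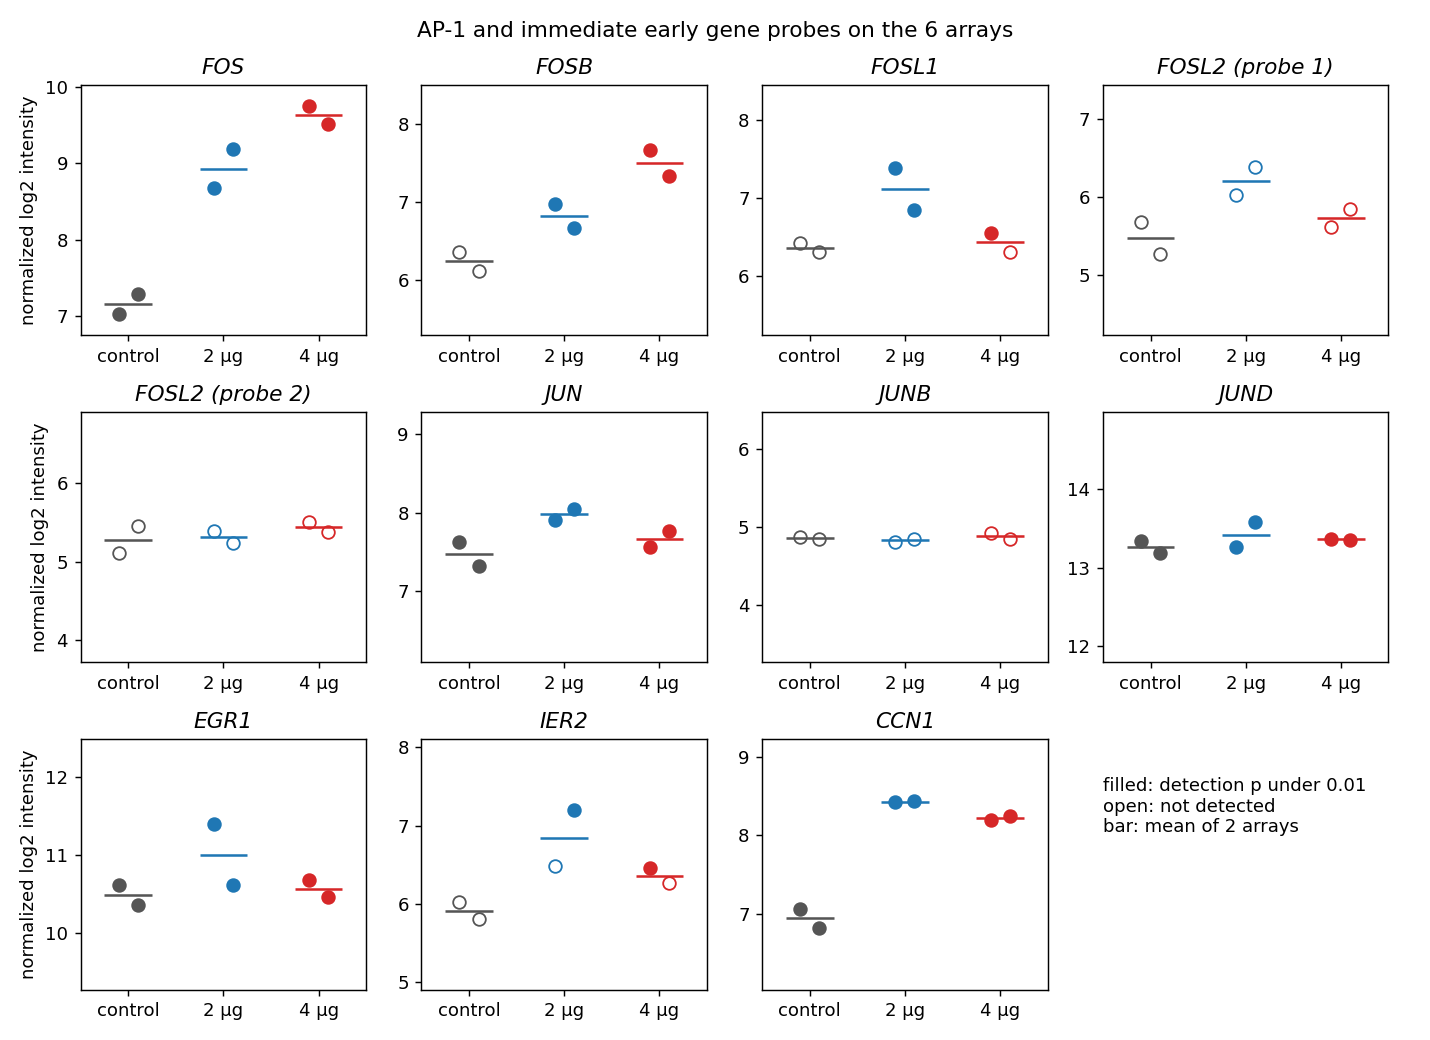
Normalized log2 intensity of each of the 11 probes (1 panel each) on the 6 arrays, with 1 point for each array, a bar at each group's mean and filled points where the probe was detected. FOS stands between 7.02 and 7.28 in the controls, 8.67 and 9.18 at 2 µg and 9.52 and 9.75 at 4 µg, with no overlap between the groups.

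FOS, whose protein is the classic short-lived partner of JUN, lies at chr14:75278828-75282230. Its scanner intensity, the mean bead brightness before any background was taken off, was 257.0 and 291.1 in the controls, 534.3 and 698.0 at 2 µg, and 1057 and 985.5 at 4 µg. The 3 groups did not overlap, and every 4 µg array was above every 2 µg array. On the normalized log2 scale the mean level was 7.15 ± 0.19 in the controls, 8.93 ± 0.36 at 2 µg and 9.64 ± 0.17 at 4 µg (SD, n = 2 each). The difference from the controls was 1.78 at 2 µg (95% interval 1.38 to 2.18, adjusted p = 6.32e-05 in limma's test) and 2.49 at 4 µg (2.09 to 2.89, adjusted p = 4.22e-05), which are 3.43-fold and 5.61-fold. Ordered by rise, FOS was gene 36 of 8018 at 2 µg and gene 4 at 4 µg. The difference between the doses was 0.71 (0.31 to 1.11, adjusted p = 0.0386), or 1.64-fold. That call between the doses was lost without 2 µg replicate 1 (adjusted p = 0.170), without 4 µg replicate 1 (0.221) or 4 µg replicate 2 (0.0959), and without either control array (0.0571 each), whereas both calls against the controls held under all 18 alternative settings.

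FOSB, a close relative of FOS, lies at chr19:45467996-45475179. Its scanner intensity was 216.7 and 205.0 in the controls, 266.1 and 228.4 at 2 µg, and 348.6 and 322.2 at 4 µg. It was detected on 0 of the 2 control arrays and on all 4 transfected arrays, and the groups did not overlap. Since the controls give only an upper limit, FOSB was at least 1.30-fold higher at 2 µg (adjusted p = 0.0170) and at least 2.09-fold higher at 4 µg (adjusted p = 0.000923). The fold is a bound set against the lowest signal among detected probes on each control array, and the p is that of limma's fit to the measured values, whose differences were 0.58 (0.21 to 0.94) and 1.26 (0.90 to 1.62) on the log2 scale. From 2 µg to 4 µg FOSB differed by 0.68 (0.32 to 1.05, adjusted p = 0.0313), or 1.61-fold. The call at 2 µg was lost without control replicate 2 (adjusted p = 0.118) or 2 µg replicate 1 (0.104), and with no background correction (0.0692). The call between the doses was lost without 2 µg replicate 2 (0.111), 4 µg replicate 1 (0.225), 4 µg replicate 2 (0.0653) or 2 µg replicate 1 (0.0546).

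The promoters of FOS and FOSB are shown because these are the members whose level was higher at the larger dose than at the smaller. The sequences are the 250 bases before each annotated start (RefSeq, GRCh38.p14, plus strand), at chr14:75278578-75278827 and chr19:45467746-45467995. Capitals mark TGACG, the core of the site bound by CREB and ATF proteins.
FOS: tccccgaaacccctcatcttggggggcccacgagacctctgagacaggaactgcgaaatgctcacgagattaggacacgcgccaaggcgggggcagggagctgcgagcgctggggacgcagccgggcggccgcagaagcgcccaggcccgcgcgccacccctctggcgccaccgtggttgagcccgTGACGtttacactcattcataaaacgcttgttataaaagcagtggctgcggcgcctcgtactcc
FOSB: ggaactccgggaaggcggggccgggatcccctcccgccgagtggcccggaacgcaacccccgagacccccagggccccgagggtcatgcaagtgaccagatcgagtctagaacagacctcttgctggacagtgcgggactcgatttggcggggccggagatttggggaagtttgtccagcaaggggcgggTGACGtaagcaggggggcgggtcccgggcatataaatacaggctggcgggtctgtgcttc
The match lies 64 to 60 bases before the start in FOS and 60 to 56 bases before it in FOSB. Promoters of 8 members were in the reference table, and TGACG on either strand was found in 8 of 8, against 21.2% of the 35116 promoters in the table. The AP-1 element TGANTCA was found in 0 of 8, against 6.57% of promoters. The background promoters were not matched to the members in base composition, for these or the later elements. The members with TGACG include JUND and EGR1, which were not called, and FOSL2, JUNB and IER2, which were not tested. A match is a run of letters in this window and says nothing of whether a factor bound there in these cells.

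FOSL1 and FOSL2 encode FRA1 and FRA2, FOS relatives that lack the strong activation domain of FOS. FOSL1 lies at chr11:65892049-65900545, and its scanner intensity was 219.6 and 214.9 in the controls, 302.2 and 240.5 at 2 µg, and 228.5 and 216.7 at 4 µg. It was detected on 0 control arrays, both 2 µg arrays and 1 of the 4 µg arrays, and the 4 µg values overlapped the controls. FOSL1 was at least 1.59-fold higher at 2 µg than in the controls (adjusted p = 0.00744 by limma, measured log2 difference 0.75, interval 0.35 to 1.15). At 4 µg the log2 difference was 0.07 (-0.33 to 0.47, adjusted p = 0.806). From 2 µg to 4 µg FOSL1 fell by 0.68 on the log2 scale (interval -1.08 to -0.28, adjusted p = 0.0432). The 2 µg call was lost without control replicate 2 (adjusted p = 0.0549), and the call between the doses was lost under 9 of 17 settings, among them without 2 µg replicate 1 (0.180), 4 µg replicate 1 (0.102), 4 µg replicate 2 (0.221) or either control array (0.0694 each). The FOSL2 probes read 181.0 and 156.0 in the controls, 208.9 and 211.5 at 2 µg and 170.6 and 188.0 at 4 µg, and, for the other probe, 147.6 and 166.9, 170.8 and 148.5, and 163.5 and 160.5. Both were detected on 0 of 6 arrays, so FOSL2 has no measured level here. When no probe was left out for low signal, the probe for FOSL2 gave an adjusted p of 0.0294 for 2 µg and 0.511 for 4 µg against the controls, and 0.245 between the doses, all from signal not above background.

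JUN, the best known partner of FOS in AP-1, lies at chr1:58780791-58784047 on the minus strand. Its scanner intensity was 315.7 and 295.4 in the controls, 373.2 and 385.9 at 2 µg, and 334.3 and 387.4 at 4 µg. Both 2 µg arrays were above both controls on the normalized scale, at 7.91 and 8.05 against 7.63 and 7.32, while the 4 µg arrays at 7.56 and 7.76 overlapped the controls. The difference at 2 µg was 0.51 (0.18 to 0.83, adjusted p = 0.0193), or 1.42-fold. At 4 µg it was 0.19 (-0.14 to 0.52, adjusted p = 0.393). The difference between the doses was itself not called, at -0.32 (-0.65 to 0.01, adjusted p = 0.196). The call at 2 µg was lost without control replicate 2 (adjusted p = 0.140) or 2 µg replicate 2 (0.0887).

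The promoter of JUN is shown beside those of FOS and FOSB because its element differs from theirs. It is the 250 bases before the start on the minus strand, chr1:58784048-58784297, with TGACG and the related palindrome TGACNTCA in capitals.
JUN: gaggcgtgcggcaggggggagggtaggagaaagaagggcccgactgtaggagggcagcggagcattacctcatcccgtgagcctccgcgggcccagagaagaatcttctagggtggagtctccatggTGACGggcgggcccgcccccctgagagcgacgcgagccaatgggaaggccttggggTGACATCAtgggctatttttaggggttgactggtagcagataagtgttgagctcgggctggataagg
TGACG lies 123 to 119 bases before the start. The second match, TGACATCA, lies 67 to 60 bases before it and is the element known in JUN to be bound by JUN and ATF2 pairs. TGACNTCA was found in 2 of 8 members, JUN and JUND, against 6.87% of promoters, and where its middle letter is G it holds TGACG as well.

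Neither of the other JUN genes was called. JUND, the JUN protein most steadily present in resting cells, lies at chr19:18279694-18281622. Its scanner intensity was 9897 and 9725 in the controls, 9272 and 11665 at 2 µg, and 11116 and 11584 at 4 µg. On the normalized scale its differences were 0.16 at 2 µg (-0.16 to 0.48, adjusted p = 0.395), 0.10 at 4 µg (-0.22 to 0.42, adjusted p = 0.655) and -0.06 between the doses (-0.38 to 0.26, adjusted p = 0.820), and none was called. The intervals leave room for a change of up to 0.48 on the log2 scale. With each array scaled to the median of the tested genes, the JUND differences from the controls turned to -0.00032 and -0.09. JUNB, which can restrain JUN, lies at chr19:12791486-12793315, and its scanner intensity was 124.1 and 117.8 in the controls, 117.0 and 114.3 at 2 µg, and 112.5 and 114.2 at 4 µg. It was detected on 0 of 6 arrays, and the probe says nothing of its level.

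EGR1, a zinc finger factor that binds GC-rich sites and is induced by mitogens alongside FOS, lies at chr5:138465479-138469303. Its scanner intensity was 1539 and 1407 in the controls, 2705 and 1684 at 2 µg, and 1883 and 1755 at 4 µg. On the normalized scale 2 µg replicate 1 stood at 11.40 and every other array between 10.37 and 10.68. The mean difference at 2 µg was 0.51 (0.02 to 1.00, adjusted p = 0.0881), at 4 µg 0.08 (-0.41 to 0.57, adjusted p = 0.823) and between the doses -0.43 (-0.92 to 0.06, adjusted p = 0.235), none of them called. Without 2 µg replicate 2 the difference at 2 µg was 0.90 (adjusted p = 0.00484) and that between the doses -0.82 (adjusted p = 0.0320), both called, so this gene's value at 2 µg is set by which duplicate is kept. EGR1 was also called at 2 µg with median scaling over all probes (adjusted p = 0.0242) and with a trended, robust variance (0.0442).

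The promoter of EGR1 is shown because it was the member with serum response elements, the CArG boxes bound by serum response factor, in the window searched. It is chr5:138465229-138465478 on the plus strand, with CArG boxes and CGTCA, the reverse complement of TGACG, in capitals.
EGR1: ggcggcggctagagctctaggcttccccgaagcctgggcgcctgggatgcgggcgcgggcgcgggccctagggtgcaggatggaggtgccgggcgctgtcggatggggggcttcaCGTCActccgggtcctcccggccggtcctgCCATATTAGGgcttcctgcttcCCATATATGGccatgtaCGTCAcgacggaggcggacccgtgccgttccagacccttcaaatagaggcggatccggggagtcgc
The CArG boxes CCATATTAGG and CCATATATGG lie 105 to 96 and 83 to 74 bases before the start, and CGTCA lies 135 to 131 and 66 to 62 bases before it. A CArG box was found in 1 of 8 members, against 1.16% of promoters. The serum response element of FOS is known to lie further upstream than this window reaches.

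IER2, an immediate early gene of less settled function, lies at chr19:13150411-13154911. Its scanner intensity was 198.8 and 188.0 in the controls, 234.0 and 271.1 at 2 µg, and 221.2 and 214.4 at 4 µg. The probe was detected on 1 of 2 arrays at each dose and on 0 controls, so it was not tested, and the undetected values have no order among themselves. With no probe left out for low signal the probe for IER2 gave an adjusted p of 0.0273 for 2 µg and 0.317 for 4 µg against the controls, and 0.355 between the doses.

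CCN1, which binds integrins and is secreted into the matrix, lies at chr1:85580761-85583950. Its scanner intensity was 260.5 and 250.1 in the controls, 470.0 and 468.2 at 2 µg, and 449.0 and 489.1 at 4 µg. The controls lay apart from both transfected groups, and the duplicates at 2 µg were almost equal. The difference from the controls was 1.49 at 2 µg (1.20 to 1.79, adjusted p = 3.06e-05) and 1.28 at 4 µg (0.99 to 1.58, adjusted p = 0.000270), or 2.82-fold and 2.43-fold, called under all 18 settings. The difference between the doses was -0.21 (-0.50 to 0.08, adjusted p = 0.331) and was not called. In order of rise CCN1 was gene 74 of 8018 at 2 µg and gene 46 at 4 µg.

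**Figure D2:**
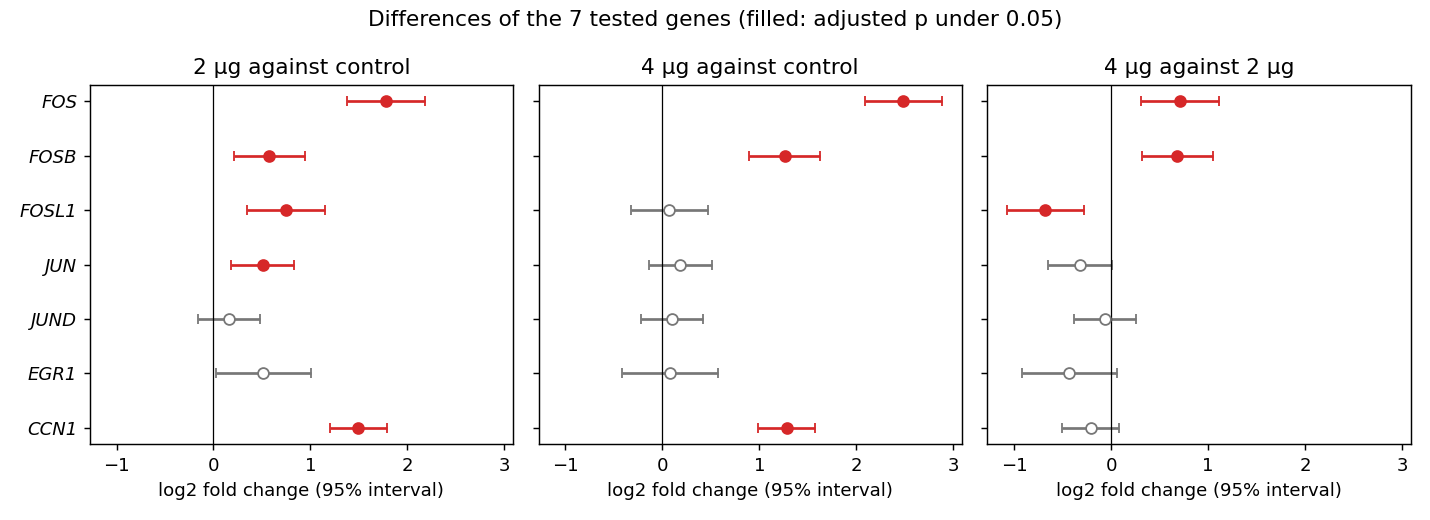
Difference in normalized log2 intensity for the 7 tested genes in the 3 comparisons, with 95% intervals of limma's fit, and filled points where the adjusted p is under 0.05. FOS is at 1.78 and 2.49 and CCN1 at 1.49 and 1.28 against the controls, and the FOS difference between the doses is 0.71.

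The duplicates at 2 µg disagreed for several of these genes, and not in the same direction. EGR1 differed by 0.78 on the log2 scale between the 2 µg arrays, and 99.3% of tested genes had a smaller difference there. On the scanner's scale the EGR1 difference was 6.62 times the combined standard error over beads. That standard error covers measurement error on the array and not the spread between cultures. FOSL1 differed by 0.54 (95.7% of genes smaller) and FOS by 0.51 (94.5%). IER2 read 234.0 and 271.1, of which the lower was not detected, so no size is given. CCN1 differed by 0.01, which 4.80% of genes undercut. EGR1 and FOSL1 were higher in replicate 1, and FOS was higher in replicate 2.

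**Figure D3:**
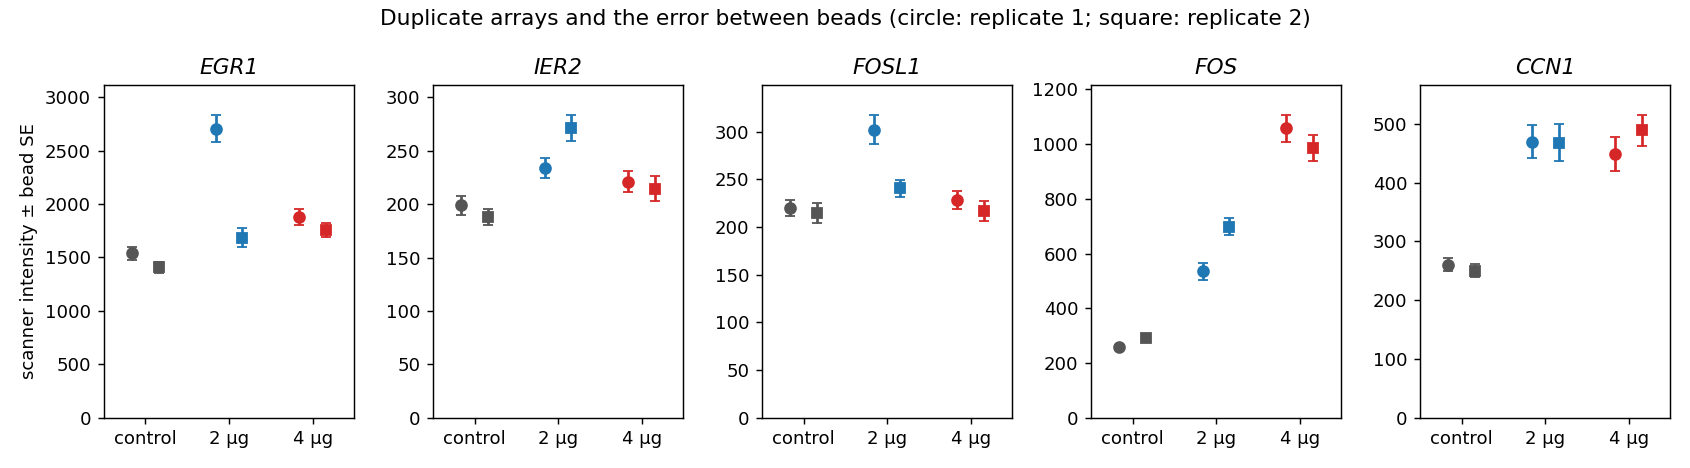
Scanner intensity of EGR1, IER2, FOSL1, FOS and CCN1 on each array, with bars for the standard error over beads. The 2 µg arrays stand apart for EGR1, at 2705 and 1684, and together for CCN1, at 470.0 and 468.2.

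Of 14 other genes whose proteins can pair within AP-1, 12 were on the arrays and 2 could be tested. ATF3, a stress-induced partner of JUN, had scanner intensities of 1878 and 1743 in the controls, 10256 and 8742 at 2 µg, and 6001 and 6320 at 4 µg. Its log2 difference was 2.45 at 2 µg (adjusted p = 3.35e-06) and 1.62 at 4 µg (adjusted p = 0.000153), and it was lower at 4 µg than at 2 µg by -0.83 (adjusted p = 0.0110), the opposite order to that of FOS. JDP2, a repressive JUN partner, was not called, at -0.01, 0.06 and 0.06.

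Of 30 other immediate early genes 28 were on the arrays and 19 were tested. Like the members and the other lists, this list was chosen with earlier results of these data known. Its shares of called genes are therefore not independent of those results. KLF4 was among the 19 only through the transfected arrays. Of the 18 genes detected on all 6 arrays 10 rose and 2 fell at 2 µg, with a median log2 difference of 0.64, where 21.5% of all genes so detected rose and 18.9% fell. At 4 µg 10 rose and 2 fell, with a median of 0.48, where 10.6% of all rose and 9.69% fell. Between the doses 0 rose and 5 fell at 4 µg, with a median of -0.22, where 4.15% of all rose and 3.40% fell. The median over all 6820 genes so detected was 0.03, 0.02 and -0.01 in these comparisons. PPP1R15A, which directs a phosphatase to the translation factor eIF2α, rose by 2.55 at 2 µg and 2.17 at 4 µg (adjusted p = 1.16e-06 and 1.23e-05). GADD45B, an activator of stress kinases, rose by 2.38 and 1.49 (3.24e-06 and 0.000203). The Krüppel-like factor KLF6 rose by 1.18 and 0.99 (0.000112 and 0.00109), and KLF4, undetected in the controls, was at least 1.37-fold and at least 1.65-fold higher (0.000802 and 0.000643). The genes that fell, named here after their values were seen, were RHOB at -0.82 and ID1 at -0.63 at 2 µg (adjusted p = 0.00150 and 0.00314), and ID1 at -0.49 and IER5L at -0.52 at 4 µg (0.0218 and 0.0436). Without control replicate 1 or without either 4 µg array the 4 µg calls of ID1 and IER5L were lost. That of ID1 was also lost without control replicate 2. Scaling to all probes lost both calls (adjusted p = 0.251 for ID1 and 0.120 for IER5L), as did the authors' processed values (0.0586 and 0.0724). IER5L also lost its call with no background correction (0.0821), no detection filter (0.108) and a trended, robust variance (0.0513). The 5 that were lower at 4 µg than at 2 µg were GADD45B at -0.89, IER3 at -0.86, ZFP36 at -0.70, CCN2 at -0.66 and CSRNP1 at -0.49, of which IER3, ZFP36 and CSRNP1 were also picked after their values were seen (adjusted p between 0.00709 and 0.0357). At 4 µg against the controls IER3 (0.79) lost its call without 4 µg replicate 2 (0.0517) and ZFP36 (0.55) lost it without control replicate 2 or either 4 µg array (0.0610 to 0.106).

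**Figure D4:**
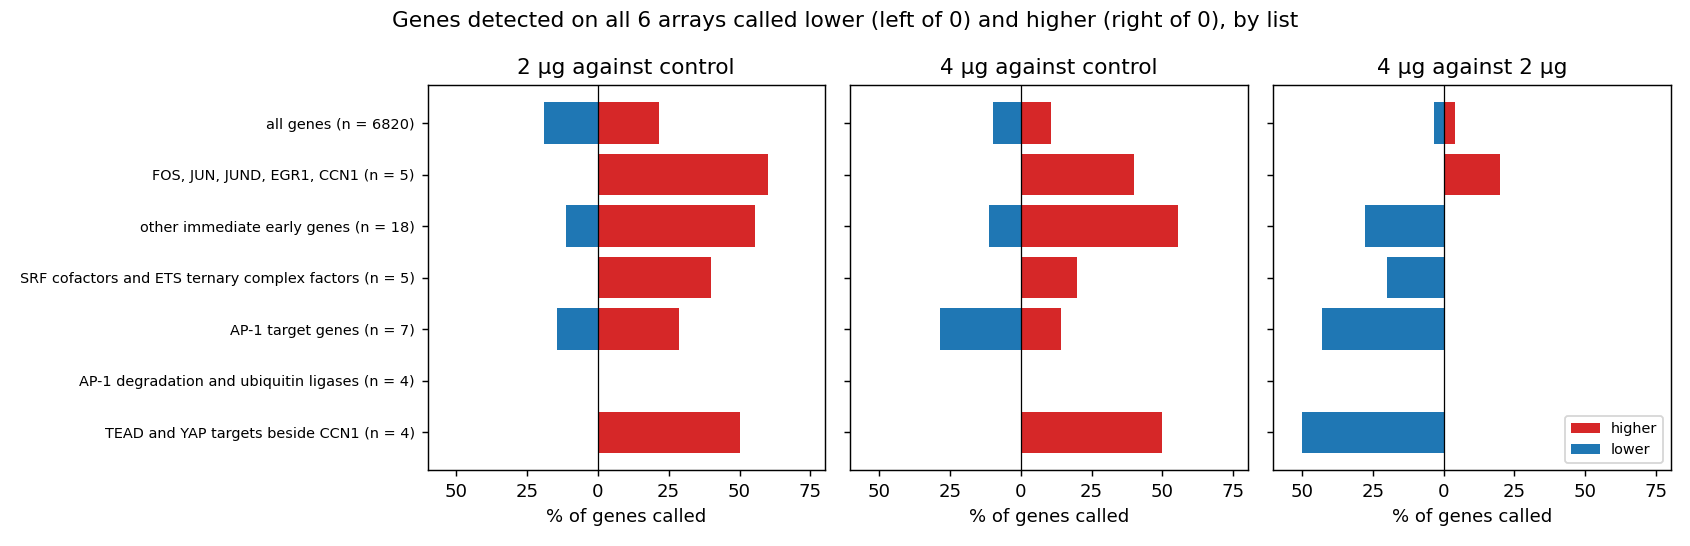
Percent of genes called higher (bars to the right of 0) and lower (to the left) in each list and comparison, among genes detected on all 6 arrays, with the number of such genes in brackets. The other immediate early genes show 10 higher and 2 lower of 18 at each dose against the controls, and 0 higher and 5 lower between the doses. All lists were chosen with earlier results of these data known.

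Another list held 10 cofactors of serum response factor and ETS factors, of which 5 were tested, each detected on all 6 arrays. Of these 5, 2 rose and 0 fell at 2 µg, 1 rose and 0 fell at 4 µg, and 0 rose and 1 fell between the doses. Among all genes detected on all arrays 21.5%, 10.6% and 4.15% rose and 18.9%, 9.69% and 3.40% fell in the same comparisons. ETS1 rose by 1.41 at 2 µg and 0.49 at 4 µg (adjusted p = 3.21e-05 and 0.0211) and was lower at 4 µg than at 2 µg by -0.92 (0.00437). The ETS1 call at 4 µg was lost without any 1 of the control or 4 µg arrays (0.0784 to 0.137). FHL2, a cofactor that itself responds to serum response factor, rose by 0.66 at 2 µg (0.00324) and had 0.33 at 4 µg (0.106). ELK1, the ETS factor phosphorylated by MAP kinases, had differences of 0.14 and -0.04, and MRTFB 0.08 and 0.33, none called. Under scaling to all probes MRTFB (adjusted p = 0.0350) and FHL2 (0.0331) were called higher at 4 µg. Both were also called there with the authors' processed values (0.0404 and 0.0446). NAB1, a corepressor that binds EGR1 and the tested member of a list of 2, fell by 0.42 at 2 µg on the log2 scale (adjusted p = 0.0263) and had -0.05 at 4 µg (0.795), with EGR1 itself uncalled at both doses. The NAB1 call was lost without control replicate 1 (0.148) or 2 µg replicate 1 (0.107).

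Of 25 genes known as AP-1 targets 22 were on the arrays and 10 were tested. Of the 7 detected on all 6 arrays 2 rose and 1 fell at 2 µg, 1 rose and 2 fell at 4 µg, and 0 rose and 3 fell between the doses. Among all genes detected on all arrays 21.5%, 10.6% and 4.15% rose and 18.9%, 9.69% and 3.40% fell in the same comparisons. The other targets called were PLAU and TNC, which were detected on 0 control arrays and so were tested only through the transfected groups. CXCL8, the chemokine interleukin-8, read 322.7 and 343.7 in the controls, 2926 and 3340 at 2 µg, and 2312 and 2481 at 4 µg. It was 14.8-fold higher at 2 µg and 9.88-fold higher at 4 µg (adjusted p = 9.92e-08 and 5.27e-07) and lower at 4 µg than at 2 µg by -0.58 (0.0209). PLAU, the urokinase protease, was at least 1.86-fold and at least 1.54-fold higher (1.30e-05 and 0.000140). TIMP1, an inhibitor of metalloproteases, fell by 0.76 and by 0.63 on the log2 scale (0.00135 and 0.00933), the second call being lost without control replicate 2 (0.0664) or 4 µg replicate 2 (0.0759). CCND1, the G1 cyclin, fell by 0.95 at 4 µg (0.00126) and had -0.33 at 2 µg (0.0688), and was lower at 4 µg than at 2 µg by -0.62 (0.0204). It was called lower at 2 µg with no background correction (0.0251), an offset of 50 (0.0477) and a trended, robust variance (0.0408). TNC, CD44 and ANXA1 were picked after their values were seen. TNC was at least 1.56-fold and CD44 1.5-fold higher at 2 µg (0.00190 and 0.00765), and TNC and ANXA1 were lower at 4 µg than at 2 µg by -0.66 and -0.54 (0.0420 and 0.0292). The CD44 call was lost without control replicate 2 (0.0648).

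Of 7 genes for the ubiquitin ligases that remove FOS and JUN proteins 4 were tested and 0 called in any comparison. At an unadjusted p under 0.05 there were 0 of 4 at the smaller dose, 2 of 4 at the larger and 1 of 4 between the doses, beside 49.6%, 36.7% and 27.1% of all tested genes. COP1 had -0.08 at 2 µg and 0.28 at 4 µg, ITCH 0.16 and 0.33, FBXW7 0.26 and 0.19, and DET1 0.13 and 0.10. ITCH was called at 4 µg under scaling to all probes (adjusted p = 0.0321) and with the authors' processed values (0.0387). COP1 was called between the doses with no background correction (0.0328) and with the trended, robust variance (0.0474), and at 4 µg with no background correction (0.0492). Of 12 genes tied to TEAD and YAP 5 were tested and 4 were detected on all 6 arrays. Of those 4, 2 rose at each dose and 2 were lower at 4 µg than at 2 µg, where 21.5% and 10.6% of all genes detected on all arrays rose and 3.40% were lower. CCN2, the closest relative of CCN1, was also in the list of other immediate early genes and so is counted in both. CCN2 rose by 1.53 and 0.87 (adjusted p = 2.31e-05 and 0.00162), and ANKRD1 by 1.69 and 1.07 (4.88e-05 and 0.00203). Both were lower at 4 µg than at 2 µg, by -0.66 and -0.61 (0.0151 and 0.0468), where CCN1 had an uncalled -0.21. WWTR1, picked after its values were seen and undetected in the controls, was at least 1.20-fold higher at 2 µg (0.0400). That call was lost under 14 alternatives, which include leaving out any 1 array. Leaving out a 4 µg array gave the same test as fitting just the controls and 2 µg arrays (0.0527). YAP1 (0.17 and 0.24) and TEAD4 (0.27 and -0.08) were not called. With no background correction TEAD4 was called higher at 2 µg (0.0363) and lower at 4 µg than at 2 µg (0.0354). The authors' processed values also called it at 2 µg (0.0397). Between the doses, the call of ETS1 held without each array in turn, whereas without 4 µg replicate 1 ATF3, GADD45B, IER3, ZFP36, CSRNP1, CXCL8, CCND1, TNC, ANXA1, CCN2 and ANKRD1 lost theirs (adjusted p = 0.0510 to 0.231). Without 4 µg replicate 2 the same genes lost their calls except IER3 (0.0558 to 0.196), 8 of them did so without 2 µg replicate 1 and 5 without 2 µg replicate 2, and CSRNP1 did so without either control array (0.0535). Under scaling to all probes CXCL8 (0.0992), CCND1 (0.0884), ANKRD1 (0.101), CSRNP1 (0.207) and ANXA1 (0.151) also lost their calls between the doses.

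The genes whose levels ran closest to 4 members were found by the root mean square log2 difference over the 6 arrays, each gene being set to its own control mean. For FOS they were BEST1 at 0.44, DDIT3 at 0.48 and ZNF165 at 0.49, against a median of 1.76 over all tested genes. DDIT3, which encodes the stress factor CHOP, differed from the controls by 2.17 at 2 µg and 1.92 at 4 µg. ZNF165 differed by 2.00 and 1.74 and BEST1 by 1.64 and 1.78. DDIT3 and ZNF165 thus had the opposite dose order to FOS in their means, and BEST1 had the same order. For CCN1 they were CEBPG at 0.07, MOK at 0.09 and CELSR3 at 0.09, against a median of 1.13. CELSR3 was detected on 4 arrays and BEST1 and ZNF165 on 5, so what is given for these 3 rests in part on values not above background. For JUN they were DIMT1 at 0.04, SPRYD3 at 0.05 and UBAP2 at 0.06 (median 0.39), and for EGR1 CNOT10 at 0.11, ZNF627 at 0.13 and SLC35F2 at 0.13 (median 0.45). All arrays that set these distances are the same 6.

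**Figure D5:**
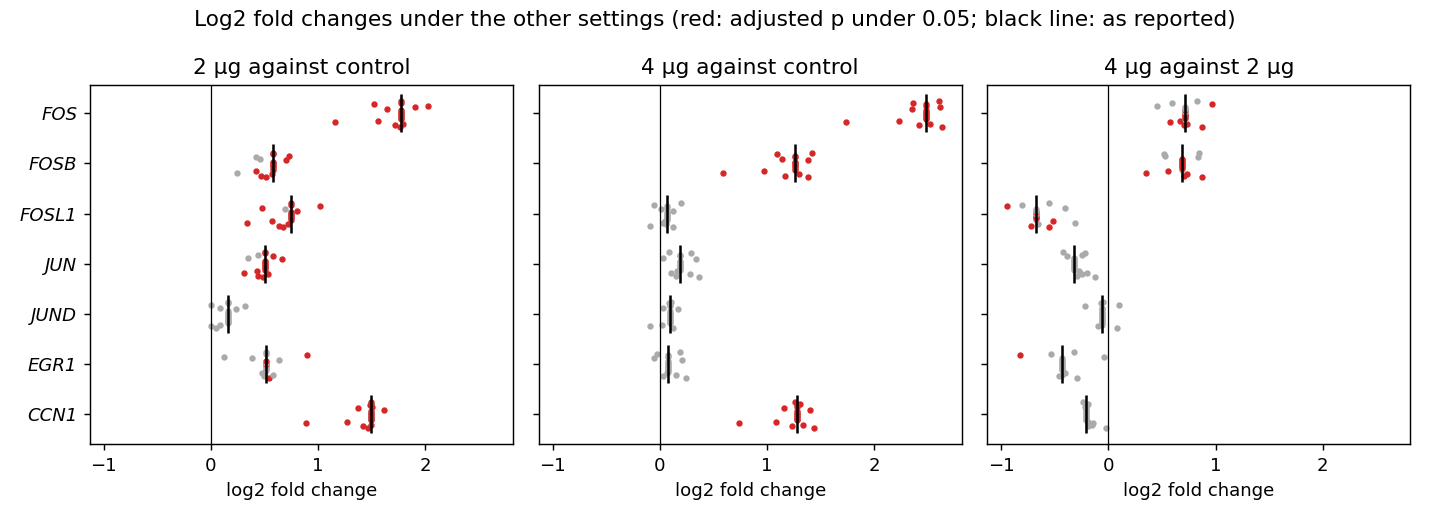
Log2 difference of each tested gene under the main processing and 18 alternatives, by comparison. FOS ranges from 1.16 to 2.03 at 2 µg and from 1.74 to 2.64 at 4 µg, and CCN1 from 0.89 to 1.61 and from 0.74 to 1.45.

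How the arrays are scaled moved the balance of calls over all genes. The main normalization called 943 genes higher and 817 lower at 4 µg against the controls. Scaling to the median of all probes called 1600 and 357 and raised the median difference of all genes to 0.18, scaling to the median of the tested genes called 771 and 1050, and the authors' processed values gave 1346 and 608. Between the doses the calls were 419 higher and 286 lower, and 870 and 102 with scaling to all probes. FOS and CCN1 were higher at both doses than in the controls under each of these scalings. A fit of just the controls and the 4 µg arrays called 2002 genes, rather than the 1760 of the main fit. Leaving out an array of a compared group gave fewer calls over all genes. At 4 µg 783 and 939 were called without control replicate 1 and 2, and 732 and 696 without 4 µg replicate 1 and 2. Between the doses 234 were called without 2 µg replicate 1, and 93 and 118 without 4 µg replicate 1 and 2.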

How the data were processed

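Per the labels' protocols, total RNA was extracted with TRIzol, amplified to biotin-labelled cRNA and read with a streptavidin dye on Illumina Human-6 chips. The submitters' processing notes name BeadStudio, with no version. The deposited scanner values are each probe's mean bead intensity, with no background taken off and no normalization, as judged from the values. The deposited table also gives, per the file headers, a detection p-value, a bead count and a bead standard error. The last was used as the error of the signal on the scanner's scale. The authors' processed table holds intensity on a linear scale, and comparison with the scanner values showed a background taken off and each array brought to a mean of 238.3, with medians of 12.2 to 14.1. The software step behind that scaling is unknown. Gene symbols came from the platform's annotation, which names 1 gene for 23687 of 48701 probes.

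The neqc function of limma 3.58.1 (R 4.3.3) was run on the scanner values. It estimates background from the detection p-values, adds an offset of 16, normalizes quantiles and takes log2. Kept probes (10021) were those with a detection p under 0.01 on each array of some group. Of these 8455 had 1 symbol, and the kept probe with the highest mean stood for its gene. The 3 groups were fitted together by limma on 3 residual and 7.42 prior degrees of freedom, with two-sided tests. Bounds set a gene undetected in a group at the lowest detected signal of each array or its own value, whichever was higher. A total of 18 alternatives were tried, and the fit was tested on simulated data. When 1 array of the group outside a comparison was left out, its other array added nothing to the estimated spread. Such a setting therefore gave the same test as fitting just the 2 compared groups, and the 18 alternatives are not all distinct. Same-numbered arrays did not deviate together (correlations -0.04, -0.09 and 0.11), so numbers were not taken as pairs. Promoters were searched on both strands in Python 3.11.15.

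The 10 members and all lists were chosen with earlier results of these data known. Besides the members, named genes were from each list the tested genes lowest in p, 4 for the larger dose against the controls and 2 for the smaller, and the 3 genes closest to FOS, JUN, EGR1 and CCN1. Others are marked as chosen later. The reference tables held no promoter for FOSL1 and CCN1.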

Additional observations from a re-analysis of the deposited data

How the results depend on the processing

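Each result was recomputed under 18 alternatives. Of 372 values for the members, 331 kept their direction and their side of the threshold, 27 lost a call, 5 gained one and 9 changed sign, and of 1767 for the other named genes 1621, 91, 27 and 28 did so. The cause was not tested except where fewer genes or arrays entered. Duplicates and the dimness of FOSB, FOSL1, FOSL2, JUNB and IER2 limit what can be seen, since signal at or under the lowest detected value, 216 to 236 on the scanner's scale, has no order.

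Members called at 2 µg were 3 rather than 5 among probes detected on all 6 arrays, which leaves out FOSB and FOSL1 by construction. Between the doses they were 1 rather than 3 there and when the fit held just the 2 transfected groups, and 0 with no detection filter, which tests 18774 genes and called 273 genes in all. Leaving out 1 array at a time, the genes called ranged from 2471 to 3093 at 2 µg, from 696 to 2002 at 4 µg and from 93 to 559 between the doses, and members called from 2 to 5, from 3 to 3 and from 0 to 3.

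With the replicate block 3330, 1753 and 709 genes and 6, 3 and 3 members were called. At 2 µg EGR1 gained a call (adjusted p = 0.0259) and WWTR1 lost one (0.0513) under the block, which changed no other call of a named gene.

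Values that changed sign were never called in the main analysis. Under scaling to the median of the tested genes JUND was -0.00032 at 2 µg and, at 4 µg, FOSL1 -0.094, JUND -0.094, JDP2 -0.054 and WWTR1 -0.10. Under scaling to all probes ELK1 was 0.14, TEAD4 0.096 and NAB1 0.14 at 4 µg, and JUND 0.076, FBXW7 0.10 and DET1 0.17 between the doses. With the authors' processed values JDP2 was 0.022 and COP1 0.026 at 2 µg, ELK1 0.048, TEAD4 0.0032 and NAB1 0.057 at 4 µg, and DET1 0.038 between the doses. Leaving out 1 array at a time, the ranges at 2 µg were -0.17 to 0.15 for JDP2, -0.027 to 0.29 for DET1, -0.0014 to 0.32 for JUND and -0.018 to 0.18 for MRTFB. At 4 µg they were -0.049 to 0.21 for EGR1, -0.054 to 0.19 for FOSL1, -0.15 to 0.036 for NAB1, -0.041 to 0.16 for JDP2, -0.035 to 0.42 for FBXW7 and -0.052 to 0.20 for WWTR1. Between the doses they were -0.22 to 0.10 for JUND, -0.096 to 0.22 for JDP2, -0.20 to 0.12 for DET1, -0.31 to 0.18 for FBXW7 and -0.033 to 0.16 for YAP1.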
